A study of Mus musculus with 12 samples.

Results

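The solute carrier family 25 (SLC25) genes were followed in mouse embryonic fibroblasts given doxycycline or DMSO, with and without depletion of the transcriptional coactivators CBP and p300. Members were all genes of the deposited count table whose symbol is Slc25a followed by a number, and they came to 38 of the 12637 genes in the table. The annotation holds 47 such genes. The other 9 (Slc25a2, Slc25a18, Slc25a21, Slc25a31, Slc25a34, Slc25a41, Slc25a43, Slc25a48 and Slc25a54) were not analysed here. All 38 members passed the filter on low counts, and their counts went down to 16 reads in 1 library, for Slc25a45.

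SLC25 proteins form the largest family of solute carriers and sit mostly in the inner mitochondrial membrane. They exchange nucleotides, phosphate, carboxylates, amino acids, cofactors and metal ions between the cytosol and the matrix. All are encoded in the nucleus and made on cytosolic ribosomes, and many reach the inner membrane through the TOM70 receptor, the small TIM chaperones of the intermembrane space and the TIM22 insertase. Doxycycline inhibits the ribosomes inside mitochondria, so it blocks synthesis of the respiratory chain subunits that the mitochondrial genome encodes and not that of the carriers.

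Polyadenylated RNA was sequenced from 4 groups of 3 libraries, all of MEFs kept in DMEM with high glucose and 10% FBS. The groups were WT with DMSO, WT with doxycycline (Dox, 30 µg/ml for 24 hours), CBP/p300 KO with DMSO and CBP/p300 KO with the same dose of Dox. The KO cells were an immortalised MEF line of the genotype Crebbpfl/fl; Ep300fl/fl with stable Cre-ERT2, a recombinase switched on by 4-hydroxytamoxifen (4-OHT). The sources used here do not say whether WT cells carried the floxed alleles or Cre-ERT2 or received 4-OHT, nor whether either genotype was more than 1 line. No source used here says that replicates were separate cultures, and every p-value below therefore rests on library-to-library spread that could be technical.

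The libraries held 44476039 to 52173143 reads counted in genes. Whole-gene counts do not check a deletion of single exons. With DMSO, Crebbp was at 66.8 ± 1.01 CPM (CPM is the gene's read count scaled to a common TMM library size; mean ± SD, n = 3) in WT and 59.9 ± 0.913 in KO cells, and Ep300 was lower in KO cells by a log2 fold change of -0.67 ± 0.0328 (SE, adjusted p = 3.9e-14, edgeR). All 8 fibroblast markers on the list were in the table, with a summed level of 12483.73 to 12963.15 CPM over the WT libraries and 2904.34 to 3411.67 CPM over the KO libraries. Of 6 macrophage markers 3 were in the table (Cd68, Csf1r and Lyz2), summing to 11.66 to 17.15 CPM in WT and 23.97 to 29.15 CPM in KO libraries. None of the 4 endothelial, 4 epithelial, 4 adipocyte or 4 skeletal muscle markers was among the genes analysed here. In bulk RNA, fewer cells of a type and less RNA per cell cannot be told apart. The mean log2 CPM over 256 processed pseudogenes was more than 0.3 log2 units below that of the genotype in 4 libraries. They were all 3 of WT with DMSO and KO with DMSO replicate 1. These are called the low-pseudogene libraries, and KO with DMSO replicates 1 and 2 also had more unmapped reads (7.63% and 6.65%, against at most 2.09% elsewhere).

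Levels of different genes were compared per kilobase of exon. The ADP/ATP exchanger Slc25a4 (ANT1, chromosome 8, 46206797 to 46211284, GRCm38) was highest in every group, with means from 218.3 to 265.03 CPM per kb. The glutathione carrier Slc25a39 (chromosome 11, 102402985 to 102407946) followed at 100.3 to 140.2 CPM per kb. Next in WT cells with DMSO were a second ADP/ATP exchanger, Slc25a5 (ANT2, chromosome X, 36795651 to 36798807), at 87.8 CPM per kb, and the phosphate carrier Slc25a3 at 71.2 CPM per kb. In KO cells with DMSO these last 2 stood in the other order, with Slc25a3 at 82.2 and Slc25a5 at 58.1 CPM per kb. The lowest member in WT cells with DMSO was Slc25a45, at 0.581 CPM per kb. The summed level of all 38 members was 2859.1 ± 21.4 CPM in WT cells with DMSO, 2793.8 ± 42.8 with Dox, 3154.8 ± 20.4 in KO cells with DMSO and 3123.4 ± 35.6 with Dox (mean ± SD, n = 3 each).

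**Figure D1:**
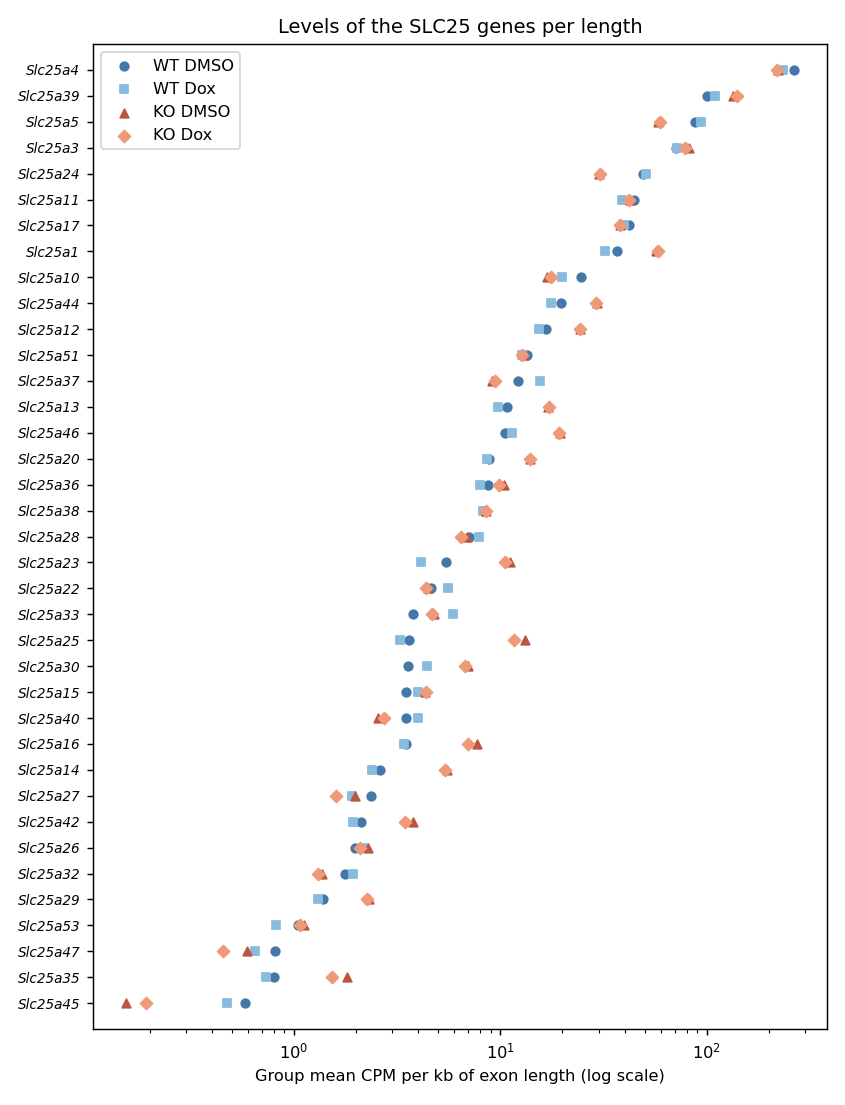
Mean CPM per kb of exon for 37 of the 38 SLC25 genes in each of the 4 groups, on a log axis. Slc25a4 is highest in all 4 groups, at 218.3 to 265.03 CPM per kb, and Slc25a45 is at 0.581 in WT cells with DMSO.

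The first comparison was Dox against DMSO in WT cells. Dox changed 26 of the 38 members (68.4%), and 11 rose and 15 fell, each by less than 2-fold. Over all genes tested, 53.1% were called in this comparison, 23.9% as risen and 29.2% as fallen, and 1.60% reached 2-fold. The Dox and DMSO libraries did not overlap for 30 members, as for 57.5% of all genes. The median log2 fold change was -0.09 over the members and -0.02 over all genes. The members that rose most were the pyrimidine nucleotide carrier Slc25a33, the mitochondrial iron importer Slc25a37 and the uncoupling protein-like Slc25a30, and those that fell most were the ATP-Mg/phosphate carrier Slc25a23, Slc25a53, Slc25a47 and Slc25a27. All 3 WT libraries with DMSO and no WT library with Dox are low-pseudogene libraries, so within WT cells that difference and Dox cannot be told apart. A fit with a term for the low-pseudogene libraries takes its size from KO with DMSO replicate 1 alone, beside the other KO libraries with DMSO. It carries that difference over to WT cells and cannot separate it from Dox there. In that fit 13 of the 26 calls held, with 22.6% of all genes called. A call can be lost in it with hardly any change of value, as for Slc25a39 (0.137 and 0.138).

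**Figure D2:**
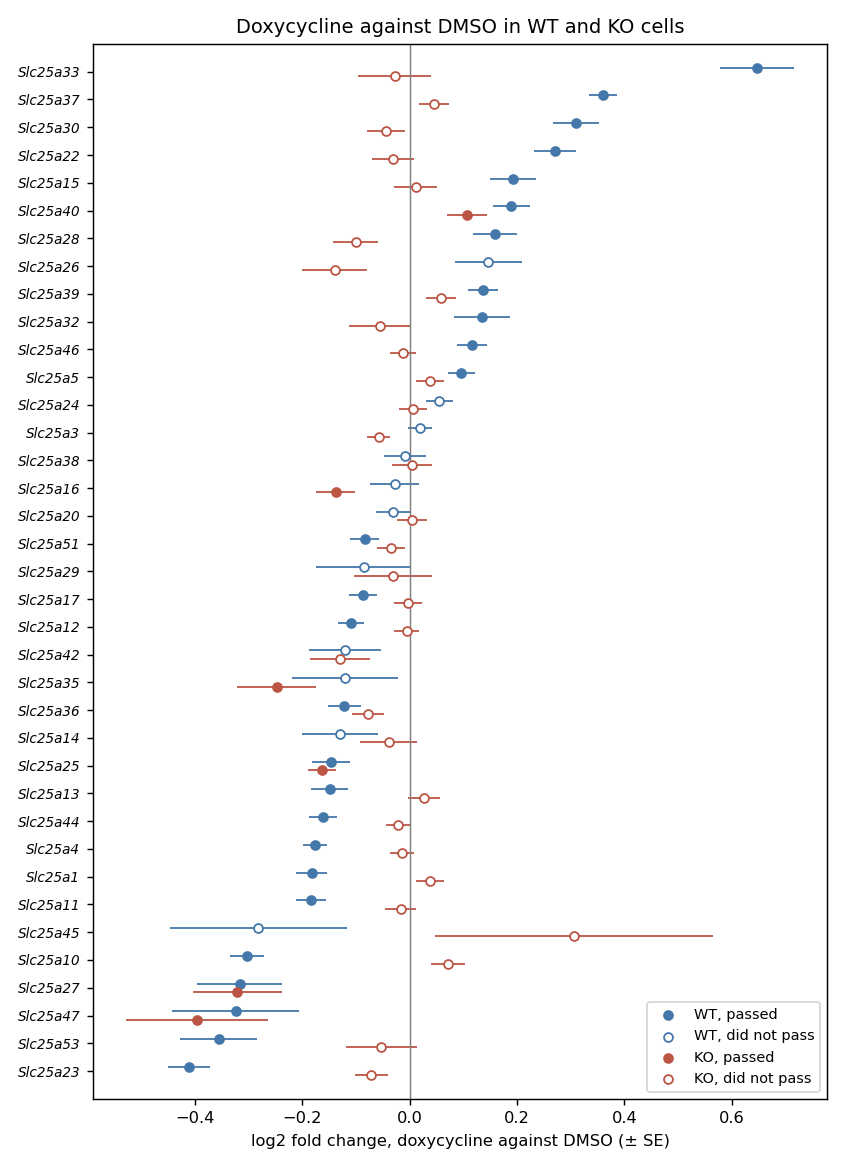
Log2 fold change of Dox against DMSO with its SE for 37 of the 38 SLC25 genes, in WT and in KO cells (3 libraries per group); filled points passed an adjusted p of 0.05 (edgeR). Slc25a33 stands highest in WT cells at 0.65 and Slc25a23 lowest at -0.41.

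Among the 13 carriers of cofactors, nucleotides and metals, 6 rose, 3 fell and 4 did not pass in WT cells, with a median log2 fold change of 0.14. Slc25a33 (chromosome 4, 149744036 to 149774277, minus strand) moves pyrimidine nucleotides into the matrix. It was at 7.83, 7.21 and 6.24 CPM in the WT libraries with DMSO and at 11.2, 10.9 and 11.2 CPM in those with Dox, which do not overlap. It rose 1.57-fold (log2 fold change 0.65 ± 0.0689, adjusted p = 3.9e-08, edgeR). Its paralogue Slc25a36, also a pyrimidine nucleotide carrier, fell by 0.12 on the log2 scale. With the term for the low-pseudogene libraries Slc25a33 was at 0.56 (adjusted p = 0.00212, edgeR), and Slc25a36 was at -0.15, short of the threshold (adjusted p = 0.0522).

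Both mitoferrins, which bring iron into mitochondria for heme and iron-sulfur clusters, rose in WT cells. Slc25a37 (mitoferrin-1, chromosome 14, 69241848 to 69285112) was at 74.1, 72.9 and 72.4 CPM with DMSO and at 95.7, 92.6 and 93.4 CPM with Dox. Every Dox library was above every DMSO library (log2 fold change 0.36 ± 0.0261, adjusted p = 5.7e-11, edgeR), and it was at 0.39 with the pseudogene term. Slc25a28 (mitoferrin-2) rose by 0.16, and with that term its value of 0.17 missed the threshold (adjusted p = 0.103, edgeR). Of the glutathione carriers, Slc25a39 rose by 0.14 and Slc25a40 by 0.19. With the pseudogene term only Slc25a40 passed, and Slc25a39 was at 0.14 (adjusted p = 0.0536, edgeR). The folate and flavin carrier Slc25a32 also rose, by 0.14, and was at 0.19 with the term without passing (adjusted p = 0.203, edgeR). The NAD carrier Slc25a51 fell by 0.08 and the peroxisomal cofactor carrier Slc25a17 by 0.09. With the term neither passed, with Slc25a51 at -0.03 and Slc25a17 still at -0.09.

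Among the 6 carriers of adenine nucleotides and phosphate, 1 rose, 3 fell and 2 did not pass. The ATP-Mg/phosphate carriers set the size of the matrix adenine nucleotide pool and respond to calcium. Slc25a23 (chromosome 17, 57043711 to 57059863) was at 29.03, 29.1 and 28.7 CPM with DMSO and at 22.8, 21.2 and 21.3 CPM with Dox in WT cells. The groups were wide apart beside their spread (log2 fold change -0.41 ± 0.0389, adjusted p = 5.8e-09, edgeR). Its paralogue Slc25a25 fell by 0.15, while the 0.06 of Slc25a24 missed the threshold (adjusted p = 0.0739, edgeR). It passed without TMM scaling (0.06, adjusted p = 0.0467) and was at -0.03 with the pseudogene term. The ADP/ATP exchangers went in opposite directions. Slc25a4 was at 623.0, 623.4 and 624.4 CPM with DMSO and 532.8, 563.2 and 560.3 CPM with Dox (-0.18 ± 0.0226, adjusted p = 6.7e-07, edgeR). Slc25a5 was at 141.3, 147.1 and 145.0 CPM with DMSO and 151.9, 159.0 and 152.3 CPM with Dox (0.10 ± 0.0250, adjusted p = 2.5e-03, edgeR), and with the pseudogene term it was at 0.04 (adjusted p = 0.583). Slc25a5 has 7 copies annotated as processed pseudogenes, of at least 90% identity over 300 bases or more. A further copy, Slc25a5-ps (94.8% over 1097 bases), is annotated as a processed transcript. None of these copies is in the table, so the counts of Slc25a5 are uncertain where reads match both. Slc25a3, Slc25a40 and Slc25a51 have 1 copy each annotated as a processed pseudogene, and Slc25a36 has 1 copy annotated as an unprocessed pseudogene.

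Of the 4 carboxylate carriers 3 fell, 1 did not pass and none rose, with a median of -0.18. Slc25a10, the dicarboxylate carrier that exchanges malate and succinate for phosphate (chromosome 11, 120491840 to 120499187), was at 85.2, 85.9 and 84.7 CPM with DMSO and at 65.8, 70.8 and 70.7 CPM with Dox. These groups do not overlap (-0.30 ± 0.0310, adjusted p = 2.1e-08, edgeR). The citrate carrier Slc25a1, which exports citrate for fatty acid synthesis, fell by 0.18, as did the oxoglutarate carrier Slc25a11. The carnitine-acylcarnitine carrier Slc25a20, which admits fatty acids for oxidation, was at -0.03 and did not pass. All 3 calls held with the pseudogene term. Slc25a11 overlaps Rnf167, which fell by 0.22. Ambiguous reads did not enter the counts. Since the strand of counting is not given, how far reads of an overlapping gene entered a member's count is not known. Altogether 19 of the 38 members overlap another annotated gene, 5 of them a gene of the table. Overlaps are of whole genes, introns included, so not all of these bases are in exons. Slc25a35 overlaps Rangrf by 1882 bases and Slc25a53 overlaps Zcchc18 by 5318, neither of them in the table. Slc25a23, Slc25a33 and Slc25a37 also overlap genes outside the table.

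The 7 amino acid carriers divided, with 2 risen, 3 fallen and 2 that did not pass. Slc25a22, a glutamate carrier (chromosome 7, 141429744 to 141437892), was at 28.1, 27.9 and 27.2 CPM with DMSO and 32.4, 34.8 and 33.2 CPM with Dox. All Dox libraries were above all DMSO libraries (0.27 ± 0.0387, adjusted p = 3.1e-06, edgeR). The ornithine carrier of the urea cycle, Slc25a15, rose by 0.19. The aspartate-glutamate exchangers of the malate-aspartate shuttle, Slc25a12 and Slc25a13, fell by 0.11 and 0.15, and the branched-chain amino acid carrier Slc25a44 fell by 0.16. The calls for Slc25a22, Slc25a12 and Slc25a44 held with the pseudogene term, while Slc25a15 was at 0.15 (adjusted p = 0.167, edgeR) and Slc25a13 at -0.15 (adjusted p = 0.0593) and did not pass.

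The 3 uncoupling protein-like members also divided. Slc25a30 (chromosome 14, 75760117 to 75787037) was at 16.7, 16.2 and 15.9 CPM with DMSO and at 20.3, 20.6 and 19.5 CPM with Dox in WT cells, without overlap (0.31 ± 0.0427, adjusted p = 1.9e-06, edgeR). Slc25a27 (chromosome 17, 43641891 to 43667214) was at 9.20, 8.44 and 10.3 CPM with DMSO and 7.54, 7.10 and 7.83 CPM with Dox. It fell by 0.32 (SE 0.0791, adjusted p = 0.0019, edgeR), and was at -0.11 with the pseudogene term (adjusted p = 0.605). Slc25a14 was at -0.13 and did not pass.

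Of the 4 members for which no substrate is given here, Slc25a53 and Slc25a47 fell, and Slc25a35 and Slc25a45 did not pass. Slc25a53 (chromosome X, 136981116 to 137038302) was at 8.69, 7.60 and 8.74 CPM with DMSO and at 6.23, 7.02 and 6.30 CPM with Dox (-0.36 ± 0.0711, adjusted p = 2.0e-04, edgeR). Slc25a47 (chromosome 12, 108836046 to 108856815) was at 2.602, 2.36 and 2.33 CPM against 2.25, 1.77 and 1.82 CPM (-0.32 ± 0.119, adjusted p = 0.025, edgeR). Neither pair of groups overlaps. With the pseudogene term neither passed, with Slc25a53 at -0.28 (adjusted p = 0.104, edgeR) and Slc25a47 at -0.26 (adjusted p = 0.439), and Slc25a47 was also lost with DESeq2. Slc25a46, an outer membrane protein that takes part in mitochondrial dynamics, rose by 0.12, and with the term it was at 0.05 and did not pass.

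Leaving out 1 library ended 4 of the 26 calls in WT cells. Slc25a32 was lost without WT with DMSO replicate 1 or 2 or WT with Dox replicate 1 or 3 (0.11 to 0.13). Slc25a47 was lost without WT with DMSO replicate 1 or WT with Dox replicate 2 or 3 (-0.28 to -0.26), and Slc25a17 without WT with DMSO replicate 2 (-0.07). Slc25a51 was lost without WT with DMSO replicate 3 (-0.07), KO with DMSO replicate 3 or any of the KO libraries with Dox (-0.07 in each).

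**Figure D3:**
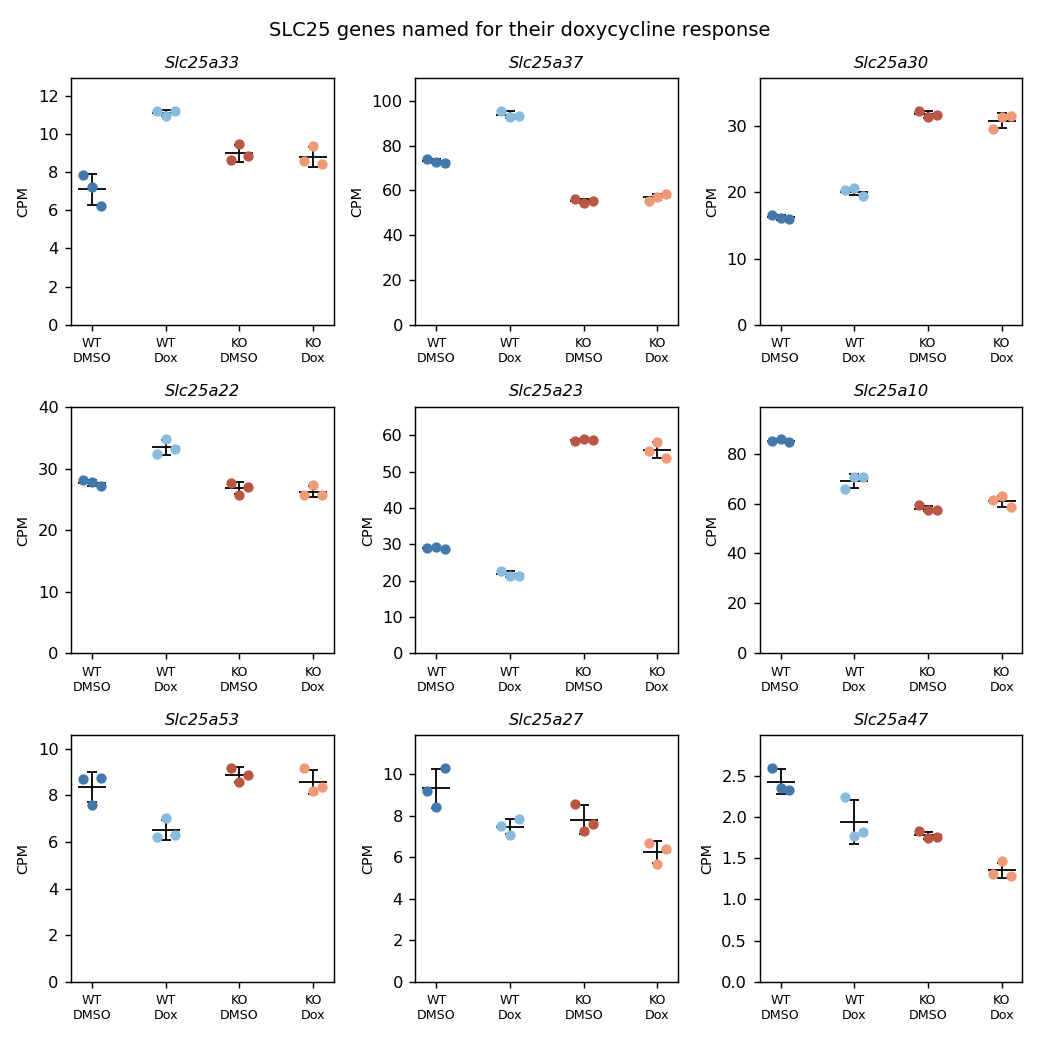
CPM in each of the 12 libraries (points) with mean ± SD (n = 3 per group) for the 9 SLC25 genes with a called Dox response, or difference of responses between genotypes, of at least 0.3 log2 units. For Slc25a33 the WT libraries with Dox sit at 10.9 to 11.2 CPM above 6.24 to 7.83 with DMSO, while the KO libraries of both treatments overlap.

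The second comparison was Dox against DMSO in KO cells, where the list of changes was short. Dox changed 6 of the 38 members, and 1 rose and 5 fell. Of all genes 21.7% were called in this comparison, 11.6% as risen and 10.1% as fallen. The groups did not overlap for 14 members, as for 38.3% of all genes. The median log2 fold change was -0.03 over the members and 0.00 over all genes, and the members ranged from -0.40 to 0.31. Slc25a40 rose by 0.11, and Slc25a16, Slc25a25, Slc25a27, Slc25a35 and Slc25a47 fell.

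Slc25a25 was the member whose call in KO cells held under every alternative run. It was at 102.2, 102.1 and 105.4 CPM with DMSO and at 91.7, 92.1 and 92.7 CPM with Dox, without overlap (-0.16 ± 0.0259, adjusted p = 5.5e-05, edgeR). Slc25a16 went from 36.5, 37.9 and 36.3 CPM to 33.1, 33.3 and 34.1 CPM (-0.14 ± 0.0363, adjusted p = 0.0078, edgeR). Its call held in every alternative that kept more than 1 library in each group. Without KO with DMSO replicates 1 and 2, which leaves 1 library in that group, it was at -0.11. Slc25a27 was at 8.58, 7.26 and 7.61 CPM with DMSO and 6.71, 5.66 and 6.43 CPM with Dox (-0.32 ± 0.0824, adjusted p = 0.0069, edgeR). Slc25a35 was at 7.28, 6.21 and 6.57 CPM with DMSO and 5.63, 5.75 and 5.53 CPM with Dox (-0.25 ± 0.0730, adjusted p = 0.016, edgeR). The groups do not overlap in any of these 4 members, yet the calls for Slc25a27 and Slc25a35 were lost without KO with DMSO replicate 1 (-0.24 and -0.17). They were also lost with the pseudogene term (-0.25 and -0.18). That replicate alone sets the term, so in KO cells the term is nearly the same check as leaving it out. Slc25a40 was at 0.11 with that term, short of the threshold (adjusted p = 0.0868, edgeR). Slc25a27 was also lost without KO with Dox replicate 2 (-0.25) and Slc25a35 without KO with Dox replicate 1 or 3 (-0.24 and -0.23). Slc25a47 was at 1.83, 1.75 and 1.75 CPM with DMSO and 1.31, 1.46 and 1.28 CPM with Dox (-0.40 ± 0.132, adjusted p = 0.034, edgeR), and was at -0.37 with that term without passing (adjusted p = 0.0858). Without KO with Dox replicate 1 or 3, or any KO library with DMSO, Slc25a47 was at -0.41 to -0.36 and no longer passed. Slc25a40 was at 0.10 to 0.12 and no longer passed without any 1 KO library or without WT with DMSO replicate 2.

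The count of 5 fallen members became 3 without KO with DMSO replicate 1, KO with Dox replicate 1 or KO with Dox replicate 3, and 9 without WT with Dox replicate 1, which enters the fit only through the shared spread. The count of 1 risen member became 2 without that last library. It became 0 without WT with DMSO replicate 2, without any KO library with DMSO, or without KO with Dox replicate 1 or 2. Of all genes 15 to 27.5% were called in these fits, against 21.7% in the main fit.

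The third comparison asked whether the Dox response differed between the genotypes. The difference passed for 17 of the 38 members, against 32.5% of all genes (18.2% with a higher and 14.3% with a lower response in KO cells). It contains the response in WT cells, so Dox and the low-pseudogene libraries cannot be told apart in it either. The response, KO minus WT, was higher for 9 members and lower for 8. The difference is made from the same 12 libraries as the responses in WT and in KO cells, so the values of each are given side by side and the calls are not counted against each other.

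By role, 3 of the 4 carboxylate carriers had a higher response in KO than in WT cells, and 4 of the 13 carriers of cofactors, nucleotides and metals had a lower one. In KO cells Slc25a33 was at 8.60, 9.46 and 8.84 CPM with DMSO and 8.59, 9.37 and 8.39 CPM with Dox. These overlap throughout (-0.03 ± 0.0676, adjusted p = 0.81, edgeR), and the difference of responses was -0.68 ± 0.0967 (adjusted p = 8.4e-06, edgeR), the furthest from 0 in the family. Slc25a37 was at 56.0, 54.4 and 55.2 CPM with DMSO and 55.4, 57.1 and 58.3 CPM with Dox in KO cells, which overlap, and its difference was -0.32 ± 0.0381 (adjusted p = 8.2e-07, edgeR).

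Slc25a30 was at 32.4, 31.4 and 31.7 CPM with DMSO and 29.6, 31.4 and 31.6 CPM with Dox in KO cells, with a difference of responses of -0.35 ± 0.0558 (adjusted p = 3.0e-05, edgeR). Slc25a22 was at 27.6, 25.8 and 27.1 CPM and at 25.8, 27.3 and 25.7 CPM, with a difference of -0.30 ± 0.0554 (adjusted p = 1.8e-04, edgeR). In both the KO groups overlap. Mitoferrin-2 (Slc25a28), the S-adenosylmethionine carrier Slc25a26, Slc25a15 and Slc25a46 were the other members with a lower response in KO cells, with differences of -0.26, -0.29, -0.18 and -0.13. Slc25a26 itself was at 0.15 in WT and -0.14 in KO cells, which did not pass in either (adjusted p = 0.054 and 0.102, edgeR). With the pseudogene term it was at -0.04 in WT cells, the other sign, and at -0.20 in KO cells, where it passed (adjusted p = 0.0263), and the difference was -0.16 and did not pass. Leaving out KO with DMSO replicate 1, nearly the same check in KO cells, gave -0.19 there, which also passed. In WT cells Slc25a26 passed without TMM scaling (0.15, adjusted p = 0.0464, edgeR). It passed there when single libraries other than those of WT with DMSO and WT with Dox replicates 2 and 3 were left out. It overlaps Lrig1 in the annotation, which showed no called Dox response in either genotype (0.00 and -0.02).

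Among members that fell in WT cells, Slc25a10 was at 59.3, 57.3 and 57.3 CPM with DMSO and 61.2, 63.0 and 58.5 CPM with Dox in KO cells, which overlap. Its difference of responses was 0.37 ± 0.0447 (adjusted p = 6.9e-07, edgeR), and its KO response of 0.07 passed without KO with Dox replicate 3 (0.10, adjusted p = 0.0426). Slc25a23 was at 58.5, 59.0 and 58.7 CPM with DMSO and 55.6, 58.2 and 53.8 CPM with Dox. These do not overlap but did not pass (-0.07 ± 0.0309, adjusted p = 0.10, edgeR), except without KO with Dox replicate 2 (-0.10, adjusted p = 0.0452), and the difference was 0.34 ± 0.0497 (adjusted p = 1.2e-05, edgeR). Slc25a53 was at 9.19, 8.56 and 8.88 CPM and at 9.16, 8.20 and 8.34 CPM, with a difference of 0.30 ± 0.0970 (adjusted p = 0.019, edgeR). That call for Slc25a53 was lost with the pseudogene term (0.25, adjusted p = 0.127, edgeR). The call was also lost without WT with DMSO replicate 1 or 3, KO with DMSO replicate 2 or 3, or KO with Dox replicate 1 (0.24 to 0.29). Without KO with DMSO replicates 1 and 2, which leaves 1 library in that group, the difference was 0.29. Slc25a1, Slc25a4, Slc25a11, Slc25a12, Slc25a13 and Slc25a44 had differences of 0.22, 0.16, 0.17, 0.10, 0.18 and 0.14. The call for Slc25a12 was lost without WT with DMSO replicate 1, KO with DMSO replicate 1 or 3, or KO with Dox replicate 1 or 2 (0.07 to 0.09), and that for Slc25a15 without WT with Dox replicate 3 (-0.14).

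For other members the difference of responses did not pass. Slc25a27 was at -0.32 in both genotypes (difference -0.01 ± 0.114) and Slc25a25 at -0.15 and -0.16 (difference -0.02 ± 0.0438). Slc25a40 was at 0.19 and 0.11 and Slc25a47 at -0.32 and -0.40. These 4 were the members called in both genotypes, and a difference that did not pass does not show equal responses. A further 9 members passed in neither genotype nor in the difference, among them the phosphate carrier Slc25a3 (0.02 and -0.06) and Slc25a20 (-0.03 and 0.00).

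Promoter sequence is shown for the members that rose and fell most in WT cells, as the 250 bases before the RefSeq start site on GRCm38.p6. That of Slc25a33 is chr4:149774268-149774517 and that of Slc25a23 is chr17:57059843-57060092, both read on the minus strand from 5′ to 3′. Capitals mark CACGTG, the palindromic E-box core.
Slc25a33: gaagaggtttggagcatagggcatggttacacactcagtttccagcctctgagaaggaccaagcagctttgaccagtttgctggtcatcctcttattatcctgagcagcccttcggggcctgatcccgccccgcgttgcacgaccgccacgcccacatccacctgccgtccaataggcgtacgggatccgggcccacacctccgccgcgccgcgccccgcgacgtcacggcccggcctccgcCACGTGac
Slc25a23: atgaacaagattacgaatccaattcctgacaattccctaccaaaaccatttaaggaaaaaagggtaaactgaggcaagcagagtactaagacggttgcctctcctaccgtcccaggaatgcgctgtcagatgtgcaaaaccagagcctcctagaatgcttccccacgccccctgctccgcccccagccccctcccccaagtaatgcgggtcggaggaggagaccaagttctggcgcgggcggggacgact
The Slc25a33 window holds 1 CACGTG, starting 8 bases before the start site, in a stretch of 64.4% G and C. The Slc25a23 window holds none and is 55.2% G and C. RefSeq windows of 300 bases (250 before to 50 after the start) were found for 29 of the 38 members. CACGTG stood in 6 of these 29 (20.69%), against 11.86% of the table's genes with a window. It was in 2 of 8 members with a window that rose in WT cells and 3 of 12 that fell. TGATGNAA, a CHOP-ATF4 type element searched on both strands, stood in 0 of the 29 members and in 2.71% of the table's genes with a window. A match is a description of the letters and says nothing of binding.

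The remaining comparisons set KO against WT cells, with DMSO and with Dox. With DMSO 21 of the 38 members were higher and 11 lower in KO cells, and with Dox 21 were higher and 14 lower. Over all genes 89.4% were called with DMSO (45.1% higher, 44.3% lower) and 89.9% with Dox (45.1% higher, 44.8% lower), so a call by itself sets no member apart. At 2-fold or more, 5 members were higher and 1 lower with DMSO and 6 and 1 with Dox, where 27.5% of all genes reached 2-fold in either. The genotypes did not overlap for 32 members with DMSO and 35 with Dox, as for 89.8% and 89.7% of all genes. The median log2 fold change of the members was 0.24 with DMSO and 0.13 with Dox, beside 0.02 and 0.01 over all genes. Without TMM scaling, the medians over all genes were 0.17 and 0.14, so values under about that size depend on the scaling. Members called were then 27 higher and 9 lower with DMSO and 24 higher and 10 lower with Dox, with medians of 0.39 and 0.26. The summed fibroblast markers were lower in every KO library than in every WT library, and whether this bears on the carriers was not tested.

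**Figure D4:**
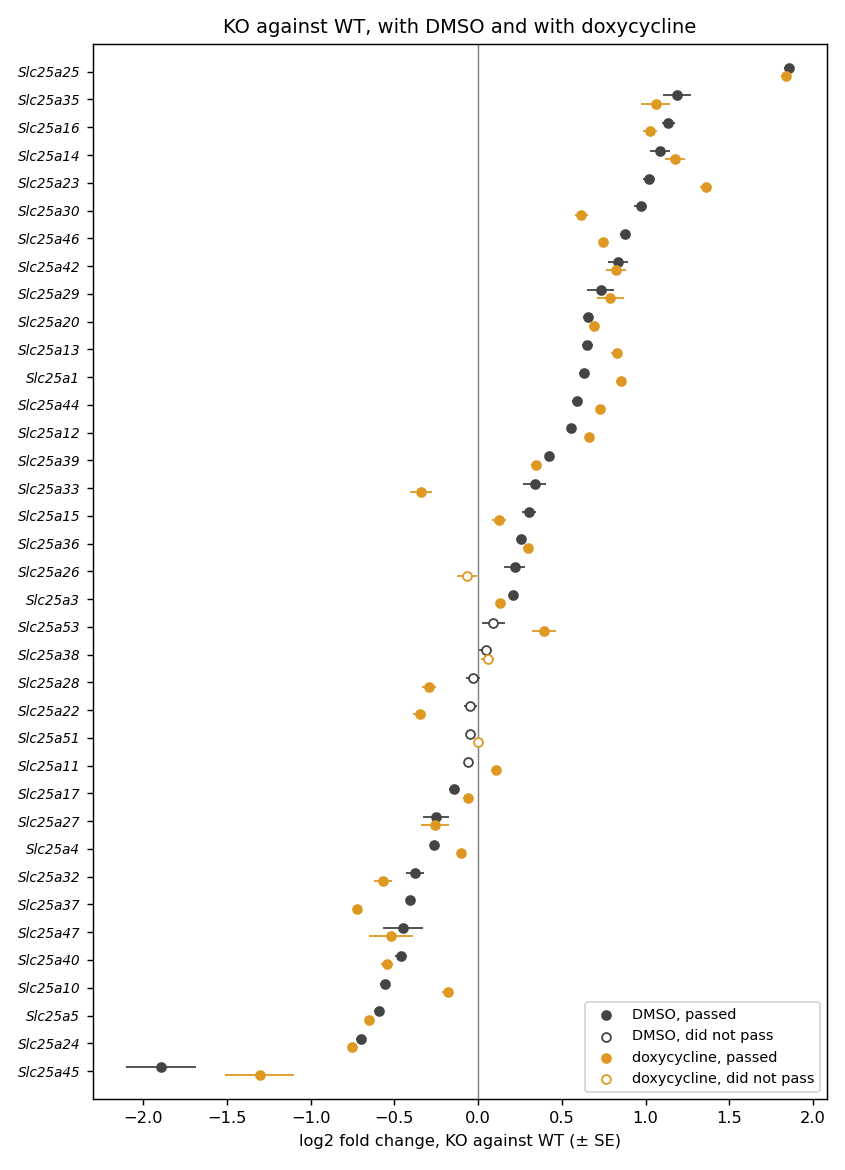
Log2 fold change of KO against WT with its SE for 37 of the 38 SLC25 genes, with DMSO and with Dox (3 libraries per group); filled points passed an adjusted p of 0.05 (edgeR). Slc25a25 stands highest at 1.86 and 1.84 and Slc25a45 lowest at -1.90 and -1.31.

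The 3 ATP-Mg/phosphate carriers differed in direction between the genotypes. Slc25a25 (chromosome 2, 32414487 to 32451445) was at 29.2, 27.2 and 29.1 CPM in WT and 102.2, 102.1 and 105.4 CPM in KO cells with DMSO, 3.62-fold higher (1.86 ± 0.0300, adjusted p = 1.4e-25, edgeR). With Dox it was at 25.8, 25.4 and 26.2 CPM in WT and 91.7, 92.1 and 92.7 CPM in KO cells (1.84 ± 0.0305). No WT library came near a KO library, and Naif1, which overlaps Slc25a25, was higher by 0.80 with DMSO and 0.79 with Dox. Slc25a23 was higher by 1.02 ± 0.0339 with DMSO and 1.36 ± 0.0354 with Dox. Slc25a24 was lower by this measure, at -0.70 and -0.75.

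Both ADP/ATP exchangers were lower in KO cells with DMSO. Slc25a5 was at 141.3, 147.1 and 145.0 CPM in WT and 93.2, 97.8 and 96.1 CPM in KO cells with DMSO (-0.59), and at 97.4, 99.7 and 97.6 CPM in KO cells with Dox (-0.65 against WT with Dox). Slc25a4 was at 515.7, 519.4 and 520.8 CPM in KO cells with DMSO (-0.27) and at 523.7, 516.4 and 500.5 CPM with Dox (-0.10). The Dox value was at 0.03 without TMM scaling and did not pass (adjusted p = 0.243). The phosphate carrier Slc25a3 was higher by 0.21 with DMSO and 0.13 with Dox.

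Among the 13 carriers of cofactors, nucleotides and metals, 7 were higher and 4 lower with DMSO, and 5 were higher and 6 lower with Dox. Slc25a16 (chromosome 10, 62920633 to 62946498) was at 16.6, 16.9 and 16.8 CPM in WT and 36.5, 37.9 and 36.3 CPM in KO cells with DMSO (1.14 ± 0.0406), and at 17.6, 15.7 and 16.01 CPM and 33.1, 33.3 and 34.1 CPM with Dox (1.03). The coenzyme A carrier Slc25a42 was higher by 0.83 and 0.82.

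The 2 glutathione carriers stood on opposite sides. Slc25a39 was at 280.2, 281.4 and 267.3 CPM in WT and 371.1, 371.8 and 370.2 CPM in KO cells with DMSO (0.42), and at 289.0, 311.6 and 311.0 CPM in WT and 395.5, 388.1 and 375.2 CPM in KO cells with Dox (0.35). Slc25a40 was lower, at -0.46 and -0.54. Slc25a37 was lower at -0.41 with DMSO and -0.72 with Dox, while Slc25a28 was at -0.03 with DMSO, which did not pass, and -0.29 with Dox. Slc25a33 was higher in KO cells with DMSO (0.34 ± 0.0712, adjusted p = 1.2e-04, edgeR) and lower with Dox (-0.34 ± 0.0655, adjusted p = 4.0e-05, edgeR). The test of that turn is the difference of responses given above.

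Of the 7 amino acid carriers 5 were higher and none lower with DMSO, and 5 were higher and 1 lower with Dox. Slc25a12 and Slc25a13 were higher by 0.56 and 0.65 with DMSO and by 0.66 and 0.83 with Dox. Slc25a15 was higher by 0.30 and 0.12, the latter lost without KO with Dox replicate 3 (0.08). The basic amino acid carrier Slc25a29 was higher by 0.73 and 0.79 and Slc25a44 by 0.59 and 0.73. Slc25a22 was at -0.05 with DMSO, which did not pass, and lower with Dox at -0.35. The glycine carrier Slc25a38, used in heme synthesis, was at 0.04 and 0.06 and was the member called in none of the 5 comparisons.

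Of the carboxylate carriers, Slc25a1 was higher by 0.63 and 0.85 and Slc25a20 by 0.65 and 0.69. Slc25a10 was lower, at -0.56 with DMSO and -0.18 with Dox. The latter was at -0.05 without TMM scaling and no longer passed (adjusted p = 0.152). Slc25a11 was at -0.06 with DMSO, which did not pass, and higher by 0.11 with Dox.

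Of the uncoupling protein-like members, Slc25a14 (chromosome X, 48623413 to 48662294) was at 6.19, 6.25 and 6.12 CPM in WT and 12.5, 13.0 and 13.9 CPM in KO cells with DMSO (1.09 ± 0.0605). With Dox it was at 5.31, 5.92 and 5.73 CPM in WT and 13.3, 12.9 and 12.2 CPM in KO cells (1.18 ± 0.0612). Slc25a30 was higher by 0.97 and 0.62, and Slc25a27 lower at -0.25 and -0.26, values that did not pass without TMM scaling. The DMSO value of Slc25a27 also did not pass without WT with DMSO replicate 3 (-0.17) or with the pseudogene term (-0.12).

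Slc25a35 (chromosome 11, 68968131 to 68974365) was at 2.97, 3.05 and 2.78 CPM in WT and 7.28, 6.21 and 6.57 CPM in KO cells with DMSO (1.19 ± 0.0833), and at 2.66, 2.55 and 2.90 CPM and 5.63, 5.75 and 5.53 CPM with Dox (1.06). Slc25a45 (chromosome 19, 5877808 to 5885878) went the other way, at 1.48, 1.74 and 1.60 CPM in WT and 0.453, 0.342 and 0.485 CPM in KO cells with DMSO. With Dox it was at 1.51, 1.34 and 1.10 CPM and at 0.684, 0.356 and 0.557 CPM. The groups do not overlap (-1.90 ± 0.208, adjusted p = 7.5e-09, and -1.31 ± 0.204 with Dox, edgeR), but it rests on 16 to 85 reads per library. Slc25a46 was higher by 0.88 and 0.75, and B930094E09Rik, which overlaps it, by 1.22 and 1.46.

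**Figure D5:**
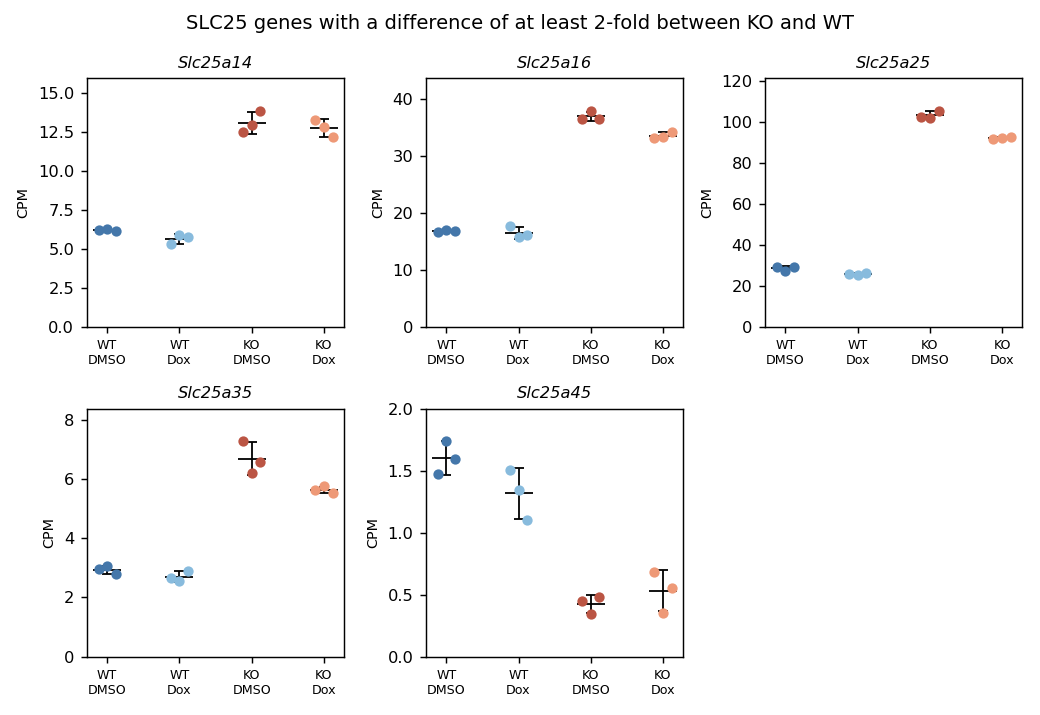
CPM in each of the 12 libraries (points) with mean ± SD (n = 3 per group) for 5 SLC25 genes with a difference of at least 2-fold between KO and WT cells with DMSO or with Dox; Slc25a23, which also reached it, is in the plot of Dox responses. The KO libraries of Slc25a25 sit at 91.7 to 105.4 CPM, above all WT libraries at 25.4 to 29.2.

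Genes that work beside the carriers were read from 3 lists. Their counts stand beside the shares of all genes called, which were 53.1% with Dox in WT cells (23.9% rose, 29.2% fell), 21.7% in KO cells (11.6% rose, 10.1% fell), and 89.4% and 89.9% for KO against WT cells. Of 15 genes for the import of carriers through TOM70 and TIM22, 8 rose and 2 fell with Dox in WT cells, and 4 rose and 2 fell with the pseudogene term. Timm8a1, Timm10 and Timm9, small chaperones that guide carriers across the intermembrane space, rose by 0.72 ± 0.0487, 0.50 ± 0.0430 and 0.23, and Timm9 did not pass with the term (0.21, adjusted p = 0.069, edgeR). In KO cells 3 rose and 2 fell, with Timm8a1 at 0.28, and 2 rose and 1 fell with the pseudogene term. With that term 22.6% of all genes were called in WT cells and 17.4% in KO cells. The response of Timm8a1, Timm10 and Tomm70a, the receptor for carriers, was lower in KO than in WT cells by a difference of -0.44, -0.42 and -0.23. In KO against WT cells 4 were higher and 9 lower with DMSO and with Dox alike, with Timm8a1 at -1.49 and -1.93, Tomm5 at -1.23 and -1.38 and Timm8b at 1.20 and 1.29.

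Of 26 other mitochondrial transporters and channels, 8 rose and 6 fell with Dox in WT cells, 3 and 2 with the pseudogene term. Those furthest from 0 were the outer membrane channel Vdac3 (0.35), the calcium uniporter pore Mcu (0.31) and the outer membrane protein Tspo (0.26), and all 3 also passed with the term. In KO cells 6 rose and 1 fell, among them Ucp2, an uncoupling protein that is itself of the SLC25 family and named outside the Slc25a series, at 0.39. The response of Ucp2 was higher in KO than in WT cells by 0.51 and that of Mcu lower, at -0.41. In KO against WT cells 12 were higher and 11 lower with DMSO and 14 and 12 with Dox, and Ucp2 was at -1.06 with DMSO.

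Of 32 enzymes that share substrates with the carriers, 14 rose and 10 fell with Dox in WT cells, 11 and 7 with the pseudogene term. Pycr1 and Aldh18a1, which make proline from glutamate, rose by 1.21 ± 0.0366 and 0.88, and Shmt2, which makes one-carbon units from serine in mitochondria, by 0.86. These 3 also rose in KO cells (Pycr1 by 0.58), with differences of responses of -0.63, -0.60 and -0.63. In KO cells 6 rose and 3 fell, as many as with the pseudogene term (6 and 3). In KO against WT cells 16 were higher and 14 lower with DMSO and 14 and 17 with Dox. Pycr1 was at -2.78 and -3.41 and the branched-chain aminotransferase Bcat1 at -2.62 and -2.98.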

How the data were processed

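Per the labels, polyadenylated RNA from 12 MEF libraries was sequenced on a BGISEQ-500. The authors deposited raw read counts per gene. STAR 2.6.0a, HTSeq 0.10.0 and build GRCm38.p6 are named in the submitters' processing notes. Their roles and the strand of counting are not given in the sources used here. Reads not assigned to a gene (1.85 to 7.63% unmapped, 5.41 to 6.57% multimapping, 4.05 to 5.01% outside genes, 4.86 to 5.29% ambiguous) did not enter library sizes or tests.

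The 4 group means were fitted together on the 12 libraries in edgeR 4.0.16 under R 4.3.3, with TMM scaling and robust quasi-likelihood F tests, two-sided, with Benjamini-Hochberg adjustment over all 12637 genes of a contrast. A gene was called at an adjusted p under 0.05, and the SE is the log2 fold change divided by the square root of F. The low-count filter removed 0 genes. The fit was also run on simulated counts with few changed genes and no low-pseudogene libraries. That run cannot show how the fit or the scaling behaves where as many genes are called as here. CPM used TMM library sizes, and CPM per kb the exon length of the GENCODE M21 annotation (GRCm38), which held 12634 of the gene identifiers. limma 3.58.1 and DESeq2 1.42.0 were alternatives. Promoters came from RefSeq (GRCm38.p6). Protein sequences were not used here. Same-numbered libraries did not deviate together (r from -0.108 to 0.098). That gives no sign that the numbers pair them and cannot exclude it. Replicate libraries differed beyond sampling noise in every pair (chi-square per degree of freedom 1.33 to 8.09). The largest values were those of WT with Dox replicate 1 against replicates 2 and 3 (8.09 and 6.30). Replicates 2 and 3 of that group were at 1.465 to each other. The biological coefficient of variation in the main fit was 2.26%.

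Counts and medians cover all 38 members, and the values of 1 member are not reported here or drawn. Any other member may be named. Values per library are given for members with a called Dox response or difference of responses of at least 0.3 log2 units or a called genotype difference of at least 1, and for the 3 highest members per kb. From each related list, up to 3 called genes with the largest change per comparison are named, and genes outside these rules (overlapping genes, Slc25a3, Slc25a16 in KO cells) were added after their values were seen. The members, the lists and the tests were chosen with earlier results of these data known. The CACGTG search and the setting without KO with DMSO replicates 1 and 2 were added after seeing the data.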

Additional observations from a re-analysis of the deposited data

Results flagged for a closer look

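These 17 members are listed because their Dox response differed between the genotypes by the test of the difference itself (edgeR, adjusted p under 0.05 over all genes, 3 libraries per group). The log2 response in KO minus that in WT cells was higher for Slc25a1 (0.22), Slc25a4 (0.16), Slc25a10 (0.37), Slc25a11 (0.17), Slc25a12 (0.10), Slc25a13 (0.18), Slc25a23 (0.34), Slc25a44 (0.14) and Slc25a53 (0.30). It was lower for Slc25a15 (-0.18), Slc25a22 (-0.30), Slc25a26 (-0.29), Slc25a28 (-0.26), Slc25a30 (-0.35), Slc25a33 (-0.68), Slc25a37 (-0.32) and Slc25a46 (-0.13). All 3 WT libraries with DMSO and KO with DMSO replicate 1 are low-pseudogene libraries. With a term for these libraries, sized by KO with DMSO replicate 1 alone, 13 of the 17 calls held. Of all genes 22.7% were called with that term and 32.5% without it. Those for Slc25a15, Slc25a26, Slc25a46 and Slc25a53 did not. The differences contain the response in WT cells, in which Dox and the low-pseudogene libraries cannot be told apart.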

How the results depend on the processing

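Counts of members (risen, fallen) are 11 and 15 for Dox in WT cells, 1 and 5 in KO cells, 9 and 8 for the difference of responses, 21 and 11 for KO against WT with DMSO and 21 and 14 with Dox. The term for the low-pseudogene libraries gave 5 and 8 in WT cells, 0 and 3 in KO cells, and 5 lower differences. Of all genes 22.6%, 17.4% and 22.7% were called in these. Leaving out KO with DMSO replicates 1 and 2, an alternative chosen after seeing the data, leaves 1 library in that group. Its calls are therefore not counted. The median over the members was then -0.024 in KO cells and -0.016 for the difference (main fit -0.025 and -0.008). In KO cells, no TMM scaling gave 0 risen, DESeq2 gave 0 and 3, and a fit of the compared groups alone gave 2 and 8. Of all genes 22%, 18.1% and 24.9% were called in these. At 2-fold the counts were 0 and 0 in each Dox comparison and for the difference, 5 and 1 for KO against WT with DMSO and 6 and 1 with Dox. Leaving out each replicate in turn gave 10 to 13 and 14 to 15 in WT cells and 0 to 2 and 3 to 9 in KO cells. The difference gave 7 to 10 and 7 to 10. For KO against WT it gave 21 to 21 and 10 to 12 with DMSO and 20 to 21 and 13 to 14 with Dox. Of all genes 46.6 to 54.8% were then called in WT cells, 15 to 27.5% in KO cells and 27.5 to 36.1% for the difference. For KO against WT the shares were 87.7 to 90.2% with DMSO and 88.3 to 90.2% with Dox. With the replicate number as a block, Slc25a26 was gained in WT cells (12 risen) and no other call of a member changed. Without TMM scaling, Slc25a17 went from -0.06 to 0.07 in KO against WT with Dox and passed in both, and that with TMM did not pass without WT with Dox replicate 2 (-0.05) or 3 (-0.06). By longest transcript, the levels in WT cells with DMSO were 323.95 CPM per kb for Slc25a4 (265.03 by exon union), 164.0 for Slc25a39 (100.3) and 116.5 for Slc25a5 (87.8). Members named for a Dox response or difference of responses were followed in those comparisons, and members named for a 2-fold genotype difference in KO against WT. Of 669 such alternative values 641 kept direction and call, 26 lost a call, 2 gained one and 0 reversed. Losses outside this set, such as those of Slc25a5 and Slc25a39 in WT cells with the pseudogene term, are not in these counts. The causes were not tested. Depth limits Slc25a45 and Slc25a47, the members with the fewest reads.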
